A study of Mus musculus with 6 samples.

Results

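Immunoglobulin transcripts were measured in lung tissue from 3 high fat diet mice and 3 control diet mice, all of them wild type, with 1 Affymetrix array for each. They were read by 57 of the 45101 probe sets on the array, a probe set being the group of short probes that reports on 1 transcript or transcript family. A probe set was included if its platform annotation held at least 1 symbol of an immunoglobulin heavy chain, kappa chain or lambda chain gene, or of Jchain. Ighmbp2, which encodes an unrelated helicase, was left out, and the rule uses the annotation alone. The sources used here do not give the strain, sex or age of the mice, the composition of the diets or the time on them. Nor do they say outright that every sample is a separate animal, so p-values measure the spread between these samples.

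An antibody joins a pair of identical heavy chains to a pair of identical light chains, and each chain has a variable region that binds antigen and a constant region. The heavy chain constant region sets the class, mu for IgM, gamma for IgG and alpha for IgA, while light chains are of the kappa or the lambda type, kappa being the commoner in mice. Jchain encodes the joining chain that links IgA into dimers and IgM into pentamers before they are carried across an epithelium. Plasma cells hold far more immunoglobulin RNA than resting B cells, so the transcripts in a piece of lung come from plasma cells and B cells of the tissue, its airways and its blood.

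The samples carried lung transcripts throughout. The surfactant gene Sftpc had signals between 32996 and 69407, the club cell gene Scgb1a1 between 38296 and 75983 and the alveolar type I gene Ager between 25750 and 36378 over the 6 mice. Signals are MAS5 intensities as deposited. Over all probe sets the median signal was 113 to 129 on the high fat arrays and 143 to 150.3 on the control arrays, and centring the arrays on their median added 0.27 to every log2 difference. With that centring 80.1 percent of all calls were toward higher signals, against 35.9 percent without it. The median log2 difference over all tested probe sets was then 0.22. The Gapdh probe sets at the 3' and 5' ends, whose ratio measures RNA integrity, gave a ratio of 0.915 ± 0.054 in high fat mice and 0.768 ± 0.026 in control mice (SD, n = 3 each), without overlap, and those of b-Actin a ratio of 1.522 ± 0.022 in high fat mice and 1.306 ± 0.122 in control mice (exact permutation p = 0.1 for each ratio, two-sided, the smallest that 3 against 3 allows). Ratios of the 3' end to the middle overlapped between the diets. For Gapdh they were 0.99 ± 0.114 in high fat mice and 0.986 ± 0.044 in control mice. For b-Actin they were 1.281 ± 0.068 in high fat mice and 1.235 ± 0.061 in control mice (exact permutation p = 0.5). The part of RNA integrity in the immunoglobulin signals was not tested.

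The 57 probe sets do not read 57 separate genes. Of them, 44 carried 1 symbol and 13 carried several, and they shared 28 different sets of symbols. Ighm alone was on 11 of them, and 3 carried a set of 5 kappa symbols that includes the constant region gene Igkc. The ending _x_at, which Affymetrix gave to probe sets whose probes can bind several sequences, was on 17 of the 57 and on 13 of the 33 that were bright enough to be tested. A symbol here therefore names the annotation of a probe set and not a transcript that was read alone, and the annotation used here assigned 0 probe sets to Ighg1, Ighg2b or Ighg2c. The probe sequences were not analysed here.

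Immunoglobulin signals were lower in high fat mice for 9 of the 33 tested probe sets (27.3 percent) and higher for 0. A call is an adjusted p under 0.05 in limma, a linear model fitted over all 27022 probe sets whose mean log2 signal reached the 40th percentile, with Benjamini-Hochberg adjustment over all of them. Of those 27022, 8.27 percent were called lower and 4.63 percent higher. The ending _x_at was on 6 of the 9 called immunoglobulin probe sets and on 13 of the 33 tested. The median log2 difference, high fat minus control, was -1.33 over the tested immunoglobulin probe sets and -0.06 over all tested probe sets. Log2 differences were below 0 for 31 of the 33, against 55.4 percent of all tested probe sets, and at or below -1 for 23 of the 33 (69.7 percent), against 5.91 percent of all. With median centring 9 were called lower, 8 of them among the 9 above, and 0 higher, at a median of -1.05, while 4.02 percent of all tested probe sets were called lower. In whole lung, fewer immunoglobulin-producing cells and less immunoglobulin RNA per cell cannot be told apart.

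The other 24 immunoglobulin probe sets were too dim to be tested, with signals between 0.6 and 352. The brightest of them by mean log2 signal was annotated Ighv14-2, Ighg3 and Ighm, at a geometric mean of 64 over the 6 mice. The dimmest tested one, annotated Igkv4-72, was at 85, and the filter lay at 70.3. Of the 33 tested, 5 had a high fat mean below the filter and passed through the control mice, 2 of them among the 9 called, while 0 had a control mean below it. Without any filter 9 of the 57 were called lower (15.8 percent, against 3.71 percent of all 45037 probe sets), and the median log2 difference was -1.27 over the 57 and -0.1 over all. Signals of all high fat mice were then below those of all control mice in 18 of 57 (31.6 percent), against 16.9 percent of all probe sets.

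Jchain, whose product is shared by IgA and IgM, had signals of 6157, 2631 and 1908 in high fat replicates 1, 2 and 3, against 18034, 33001 and 3130 in control replicates 1, 2 and 3. Control replicate 3 lay below high fat replicate 1, so the groups overlapped. The log2 difference was -1.97 ± 0.77 (SE), which is 0.255 times the control level with a 95% interval of 0.076 to 0.856, and it was not called (limma adjusted p = 0.123). The difference was -2.96 without control replicate 3, where it was called (limma adjusted p = 0.0286), and -1.26 without control replicate 2 (limma adjusted p = 0.326).

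The alpha heavy chain gene Igha, which gives the antibody class of mucosal surfaces, was read by 3 bright probe sets, and 0 of them were called. In 1425763_x_at the signals were 4987, 6248 and 7630 in high fat mice and 25317, 30088 and 3819 in control mice. In 1421653_a_at they were 5937, 7138 and 8475 in high fat mice and 20330, 27065 and 4648 in control mice. In 1429381_x_at they were 3218, 2701 and 4009 in high fat mice and 18515, 16329 and 2691 in control mice. The high fat mice lay close together and well below control replicates 1 and 2, but control replicate 3 lay below every high fat mouse in all 3 probe sets. The log2 differences were -1.2, -0.94 and -1.52 (limma adjusted p = 0.248, 0.275 and 0.137), and without control replicate 3 all 3 were called, at -2.16, -1.72 and -2.41 (limma adjusted p = 0.00726, 0.0124 and 0.00482). Without control replicate 2 they were -0.67, -0.45 and -1.11 (limma adjusted p = 0.571, 0.632 and 0.348).

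Probe sets annotated Ighm, the mu heavy chain constant region gene, fell into different patterns, a division made after their values were seen. Of 11, 8 were tested, and 4 were called, all lower in high fat mice. The called ones were 1427870_x_at, 1425247_a_at, 1427756_x_at and 1425324_x_at. In 1427870_x_at, the one whose high fat signals were farthest above the filter, the signals were 335, 275 and 387 in high fat mice and 4325, 11258 and 1465 in control mice. The groups did not overlap although the control mice themselves differed widely. The log2 difference was -3.66 ± 0.59 (SE; limma adjusted p = 0.00907), or 0.0793 times the control level.

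The 3 other called probe sets of Ighm had the same order of groups. In 1425247_a_at the signals were 198, 54.9 and 154 in high fat mice and 3805, 11013 and 909 in control mice. In 1427756_x_at they were 95, 45.7 and 82.6 in high fat mice and 2420, 8910 and 651 in control mice. In 1425324_x_at they were 41, 45.9 and 69.7 in high fat mice and 2249, 7649 and 503 in control mice. In each the lowest control mouse was above the highest high fat mouse, and the log2 differences were -4.83, -5.09 and -5.34 (limma adjusted p = 0.0103, 0.00757 and 0.00714). Every high fat signal of 1425324_x_at was below the filter signal of 70.3, so it was tested only through its control mice, and the size of such differences is uncertain where high fat signals lie near or below the filter. All 4 stayed called with any 1 mouse left out (limma adjusted p up to 0.0364), and their log2 differences then lay between -6.35 and -2.94. One more, 1425385_a_at, had 552, 1.76 and 167 in high fat mice and 8246, 12278 and 609 in control mice and was not called (log2 difference -6.18 ± 1.93, SE; limma adjusted p = 0.0681). Its mean log2 signal in high fat mice also lay below the filter, so it too was tested only through its control mice. Without high fat replicate 1 it was called, at -7.85 (limma adjusted p = 0.039), and without high fat replicate 2, the mouse at 1.76, it was -3.7 (limma adjusted p = 0.0941). As a mean log2 signal relative to the control average, these 5 probe sets stood at -4.17, -6.44 and -4.44 in high fat mice and at 0.29, 1.71 and -2 in control mice. The -6.44 includes the signal of 1.76.

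By contrast, the pair of Ighm probe sets with the highest signals overlapped between the diets. In 1427351_s_at the signals were 26845, 8782 and 2133 in high fat mice and 17608, 20541 and 8875 in control mice. In 1427329_a_at they were 15498, 4131 and 2359 in high fat mice and 9100, 9592 and 5213 in control mice. High fat replicate 1 was the highest of all 6 mice in both probe sets and high fat replicate 3 the lowest. The log2 differences were -0.89 ± 0.76 and -0.53 ± 0.58 (SE; limma adjusted p = 0.458 and 0.574), with 95% intervals of 0.163 to 1.78 times and 0.278 to 1.73 times the control level, and they turned to 0.058 and 0.057 without high fat replicate 3. Without high fat replicate 1, 1427329_a_at was called, at -1.3 (limma adjusted p = 0.0401). The last tested one, 1452535_at, was dim, at 149 ± 57.3 in high fat and 225 ± 65.1 in control mice (SD, n = 3 each; limma adjusted p = 0.261). Log2 differences under the one symbol Ighm thus ran from -6.18, which includes that signal of 1.76, to -0.53, and which heavy chain classes each of them reads is not given in the sources used here.

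Gamma and variable heavy chain probe sets were few. Of 4 annotated Ighg3 alone, the gene of the IgG3 heavy chain, only 1427503_at was tested. Its signals were 561, 149 and 111 in high fat mice and 1545, 846 and 207 in control mice, overlapping between the groups, and it was not called (log2 difference -1.62 ± 0.77, SE; limma adjusted p = 0.186). Of 5 with a heavy chain variable symbol only the one annotated Ighv14-2 was tested. It had 519.8, 240.0 and 858 in high fat mice and 955, 1644 and 964 in control mice, with no overlap, and was not called (log2 difference -1.27 ± 0.42, SE; limma adjusted p = 0.077).

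Kappa light chain signals were lower in high fat mice in 5 of 16 tested probe sets and higher in 0. The 3 probe sets that include Igkc, the kappa constant region gene, were among the brightest, and 1 of them was called. In 1452417_x_at the signals were 9335, 6461 and 8242 in high fat mice, against 13258, 22984 and 12221 in control mice. The groups did not overlap, and the level fell to 0.511 times that of control mice (log2 difference -0.97 ± 0.24, SE; limma adjusted p = 0.0348). This call was kept in 1 of the 6 fits with a mouse left out, with the highest limma adjusted p, 0.0992, without high fat replicate 2. Of the 10 other settings run, 6 kept the call. The settings that lost it included median centring, no intensity trend and the replicate block (limma adjusted p = 0.0579, 0.0738 and 0.0553). The 2 others were not called. In 1427660_x_at the signals were 15271, 9190 and 10882 in high fat mice and 18979, 33897 and 15602 in control mice, so these groups did not overlap either (log2 difference -0.91 ± 0.29, SE; limma adjusted p = 0.0727), and it was called with quantile normalization alone among the scalings (limma adjusted p = 0.0275, against 0.128 with median centring). In 1427455_x_at, the brightest, they were 25719, 9950 and 10060 in high fat mice and 30634, 60173 and 16519 in control mice. There high fat replicate 1 lay above control replicate 3 (log2 difference -1.19 ± 0.49, SE; limma adjusted p = 0.137).

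Of 11 tested probe sets with kappa variable symbols alone, 4 were called, all lower, and the median log2 difference of the 11 was -1.57. A probe set annotated Igkv6-14, Igkv6-23 and Igkv8-19 had 229, 155 and 119 in high fat mice and 900.0, 1420 and 477 in control mice. The groups were apart, at 0.191 times the control level (log2 difference -2.39 ± 0.39, SE; limma adjusted p = 0.00915), and the call held in all 6 fits with a mouse left out. Igkv4-68, in 1427857_x_at, had 87.2, 57.4 and 66.1 in high fat mice and 199.7, 288 and 182 in control mice, also apart (0.316 times, limma adjusted p = 0.0131). Its high fat mean lay below the filter, so it was tested only through its control mice, and without control replicate 2 its limma adjusted p was 0.0597.

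Igkv14-111 and Igkv9-120 were also called lower, but these calls were lost in most fits with a mouse left out, where their log2 differences lay between -4.44 and -2.6 and between -3.14 and -1.94. Igkv14-111 had 185, 134 and 118 in high fat mice and 4050, 2391 and 313 in control mice, so control replicate 3 was nearer to the high fat mice than to the other controls. Its level was 0.0989 times that of control mice (limma adjusted p = 0.028), and it was called in 2 of 6 fits with a mouse left out, with limma adjusted p up to 0.104 without control replicate 2. Igkv9-120, in 1460423_x_at, had 1279, 261 and 243 in high fat mice and 2890, 3390 and 1124 in control mice. High fat replicate 1 lay above control replicate 3, which made it the only called probe set whose groups overlapped (0.195 times, limma adjusted p = 0.0424). It was called in 1 of 6 such fits, with limma adjusted p up to 0.14 without control replicate 2.

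The other kappa variable probe sets included the bright Igkv8-30, with 7422, 2886 and 2357 in high fat mice and 10914, 26552 and 4582 in control mice (log2 difference -1.57 ± 0.61, SE; limma adjusted p = 0.119). High fat replicate 1 again exceeded control replicate 3. Igkv6-14, in 1427860_at, had 444, 198 and 532 in high fat mice and 1879, 886 and 454 in control mice (log2 difference -1.34; limma adjusted p = 0.115). Here high fat replicate 3 was the one above control replicate 3. Igkv15-103 had 965, 286 and 88.7 in high fat mice and 1986, 907 and 147 in control mice, and its ranges overlapped across most of their width (log2 difference -1.15; limma adjusted p = 0.475). The 4 dimmer ones, 1452536_s_at, 1426200_at, 1427577_x_at and 1426201_at, had log2 differences from -1.63 to -1.02 and overlapped between the diets (limma adjusted p = 0.167 to 0.324).

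Of 2 tested probe sets annotated only with the kappa locus, neither was called. In 1425738_at the signals were 853, 336 and 245 in high fat mice and 1838, 2190 and 423 in control mice (log2 difference -1.53; limma adjusted p = 0.139). In 1452557_a_at they were 357, 230.3 and 225 in high fat mice and 202, 419 and 110.2 in control mice (log2 difference 0.33; limma adjusted p = 0.648). Control replicate 3 was the lowest control mouse in both, and the second was 1 of only 2 tested immunoglobulin probe sets with a difference above 0, the other being 1447918_x_at of the lambda chain.

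Lambda light chain signals overlapped in every tested probe set, and 0 of 3 were called. The one annotated Iglc1 and Iglv1, a lambda constant and a lambda variable gene, had 1388, 361 and 409 in high fat mice and 718, 1240 and 350.4 in control mice. Its log2 difference was -0.2 ± 0.56 (SE; limma adjusted p = 0.84), and the 95% interval of 0.36 to 2.1 times the control level includes both a fall and a rise. In 1430523_s_at, annotated Iglv1, the signals were 2202, 397 and 474 in high fat mice and 1157, 2241 and 340.3 in control mice. The third, 1447918_x_at, had 429, 213 and 201 in high fat mice and 206, 415 and 142 in control mice. In all 3 the highest high fat mouse was replicate 1, the lowest control mouse was replicate 3, and the log2 differences lay between -0.36 and 0.2. Whether lambda and kappa differ in their response was not tested.

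Mice of the same diet differed more in immunoglobulin signals than in most transcripts. The ratio of the highest to the lowest mouse had a median of 2.69 among high fat mice and 5.17 among control mice over the 33 tested probe sets, against 1.37 and 1.29 over all tested probe sets. High fat replicate 1 was the highest of its group in 24 of 33, and replicates 2 and 3 were the lowest in 14 and 16. Control replicate 2 was the highest of its group in 26 of 33 and control replicate 3 the lowest in 32. In 22 of 33 control replicate 3 lay below at least 1 high fat mouse, and in 7 below all of them. Control replicates 1 and 2 both lay above all high fat mice in 24 of 33, while 25.6 percent of all tested probe sets had that order. That count leaves out control replicate 3, the lowest control in these same signals, so the shares are not a like comparison. Signals of all high fat mice were below those of all control mice in 11 of 33 (33.3 percent), against 21.7 percent of all tested probe sets, and above them in 0, against 14.6 percent.

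As a mean log2 signal relative to the control average, the 33 probe sets stood at -1, -2.26 and -2.12 in high fat replicates 1, 2 and 3, and at 0.39, 0.86 and -1.25 in control replicates 1, 2 and 3. The -2.26 includes the signal of 1.76 in 1425385_a_at. For the alpha heavy chain, high fat replicate 1 was the lowest of its group, at -1.42, -1.31 and -0.94 in high fat mice and 0.8, 0.96 and -1.75 in control mice. For lambda it was the highest of all mice, at 1.04, -0.77 and -0.65 in high fat mice and 0.06, 0.98 and -1.05 in control mice. The chains therefore did not rank the high fat mice alike, whereas control replicate 3 was lowest among controls for J chain, alpha, Ighm, Ighg3, kappa and lambda.

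Genes that mark and regulate plasma cells, each read by its brightest probe set, were mostly not called. With 1 probe set per gene, 3.1 percent of 12688 tested genes were called lower and 6.27 percent higher. Of 14 tested plasma cell regulators and markers, 2 were lower, 1 was higher and 11 were not called (median log2 difference -0.3, against 0.06 over all genes). With median centring 0 of the 14 were lower and 2 were higher, at a median of -0.02. That centring added 0.27 to every log2 difference, and so to the 0.06 over all genes as well. Pou2af1, a coactivator of immunoglobulin transcription in B cells, had 375, 211 and 274 in high fat mice and 631, 741 and 402 in control mice, with no overlap and the lowest control again in replicate 3 (log2 difference -1.04 ± 0.28, SE; limma adjusted p = 0.0427). Cxcr4, the receptor that holds plasma cells in the bone marrow and is found on many leukocytes, fell to 0.61 times (limma adjusted p = 0.0292). Sdc1, or CD138, a plasma cell marker that epithelia express strongly too, rose 1.28-fold (limma adjusted p = 0.0493). Pou2af1 and Cxcr4 were each called in 2 of 6 fits with a mouse left out. Their highest limma adjusted p, 0.141 and 0.0816, came without control replicate 2. Sdc1 was called in 0 of 6 such fits (limma adjusted p up to 0.15).

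Prdm1, or Blimp-1, which drives plasma cell differentiation, had 280.0, 455 and 460.4 in high fat mice and 594, 807 and 614 in control mice, with no overlap, and was not called (limma adjusted p = 0.0554). Xbp1, which expands the secretory apparatus in plasma cells and other secretory cells, had a log2 difference of -0.04 ± 0.15 (SE; limma adjusted p = 0.896). It turned to 0.24 with median centring, which added 0.27 to every log2 difference. Tnfrsf17, which encodes the plasma cell survival receptor BCMA, was too dim to be tested.

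Genes of the machinery of antibody secretion had no calls toward lower signals. Of 21 tested genes 0 were lower and 3 were higher, and the median log2 difference was 0.03, against 0.06 over all genes. With median centring, which added 0.27 to every log2 difference, 8 were higher, at a median of 0.3. With that centring 80.1 percent of all calls were toward higher signals. The 3 genes called higher without centring serve secretory cells of many kinds. They were Creld2 (1.89-fold, limma adjusted p = 0.0152), Sec61b, a subunit of the translocation channel (1.57-fold, 0.0107), and Manf (1.53-fold, 0.0344), a secreted chaperone of the endoplasmic reticulum like Creld2. Without control replicate 3, 0 of the 21 were called, with limma adjusted p of 0.0657, 0.0569 and 0.12 for these 3. Mzb1, a chaperone of immunoglobulin assembly largely restricted to B cells and plasma cells, had 772, 322 and 774 in high fat mice and 1091, 1660 and 587 in control mice. Its lowest control mouse was replicate 3, below both high fat replicates 1 and 3, and it was not called (log2 difference -0.82 ± 0.42, SE; limma adjusted p = 0.222).

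Genes of the B cell receptor complex and of B cells were lower in some cases. Of 14 tested receptor partners and signalling genes 1 was lower and 0 were higher, all 14 log2 differences were below 0, though Syk, a kinase of the receptor, was at -0.0033 and Cd81, a coreceptor component, at -0.05, so both lie above 0 with median centring. The median was -0.69, and -0.42 with that centring. The called gene was Cd22, an inhibitory coreceptor, with 488, 321 and 695 in high fat mice and 1062, 1388 and 896 in control mice (limma adjusted p = 0.0265). The signalling chains Cd79a and Cd79b had log2 differences of -0.75 ± 0.34 and -0.9 ± 0.27 (SE; limma adjusted p = 0.174 and 0.0641). Cd79a overlapped between the diets through high fat replicate 3, at 666 against 662 in control replicate 3.

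Of 18 tested B cell lineage markers 3 were lower and 0 were higher (median -0.16, against 0.06 over all genes). With median centring, which added 0.27 to every log2 difference, 2 were lower and the median turned to 0.12. Ms4a1, which encodes CD20, had 849, 397 and 775 in high fat mice and 1576, 2193 and 1361 in control mice, so that control replicate 3 stood far nearer to the other controls than it did for Jchain or Igha. Its level was 0.382 times that of control mice (limma adjusted p = 0.0204). Fcmr, the receptor for IgM, and Fcer2a, the low-affinity receptor for IgE on B cells, fell to 0.504 and 0.499 times (limma adjusted p = 0.0137 and 0.0321). Pax5, the factor that maintains B cell identity, was not called (limma adjusted p = 0.682), and its log2 difference of -0.22 turned to 0.06 with median centring. With 1 mouse left out, 5 receptor genes were called lower without high fat replicate 3 and 0 in the 5 other fits. Without high fat replicate 3, 8.47 percent of all tested probe sets were called lower. Shares with a mouse left out are over all tested probe sets, whereas these lists hold 1 probe set per gene. With all 6 mice 8.27 percent of probe sets and 3.1 percent of genes were called lower. Of the lineage markers 0 were called without control replicate 2, 1 without control replicate 3 and 2 or 3 in the 4 other fits. Without control replicate 2 the limma adjusted p of Ms4a1, Fcmr, Fcer2a and Cd22 was 0.0794, 0.0609, 0.109 and 0.099, and the share of all tested probe sets called lower was 1.67 percent. Over the 6 fits their log2 differences lay between -1.59 and -1.05, -1.09 and -0.83, -1.17 and -0.78, and -1.47 and -0.91.

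Receptors that bind or carry antibody were mostly not called. Of 10 tested, 1 was lower and 0 were higher. Fcgr4, an activating IgG receptor of monocytes and neutrophils, had 113, 127 and 117 in high fat mice and 284, 229.9 and 307 in control mice, with no overlap (0.437 times, limma adjusted p = 0.0136, and 0.0693 without control replicate 3). Pigr, which carries IgA and IgM joined by the J chain across the airway epithelium, had 2818, 1471 and 1834 in high fat mice and 1729, 1084 and 997 in control mice and was not called (log2 difference 0.67 ± 0.27, SE; limma adjusted p = 0.128). Of 6 tested survival and recruitment factors only Cxcl13, the chemokine that draws B cells into follicles, was called. It rose 3.47-fold, with 1791, 3341 and 2102 in high fat mice and 588, 740.4 and 690.1 in control mice (limma adjusted p = 0.0044), and stayed called with any 1 mouse left out. Of 6 tested class switching and diversification genes 0 were called. Il7r was the 1 gene called, lower, of 3 tested in the list of surrogate light chain and immature B cell genes (0.676 times, limma adjusted p = 0.0349). It was called in 1 of 6 fits with a mouse left out, with limma adjusted p up to 0.119 without control replicate 2.

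Transcripts of other cell types differed between the same samples. The summed signal of 11 adipocyte markers was 46794 to 70520 in high fat mice and 12874 to 24459 in control mice, and 7 of 10 tested were called higher. The adipocyte score stood at 2.88, 2.06 and 2.32 in high fat replicates 1, 2 and 3, and at -0.68, -0.2 and 0.88 in control replicates 1, 2 and 3. High fat replicate 1 thus had the highest adipocyte and immunoglobulin scores of its group, while control replicate 3 had the highest adipocyte and the lowest immunoglobulin score of its own. Of 15 tested T and NK cell markers 4 were lower and 0 were higher, with summed signals of 4161 to 5407 in high fat mice and 5851 to 6766 in control mice. With median centring 2 were lower and 1 was higher. With a mouse left out 1 to 6 were lower, 6 without high fat replicate 3 and 1 or 2 otherwise. Without high fat replicate 3, 8.47 percent of all tested probe sets were called lower. That share is over probe sets, whereas the list holds 1 probe set per gene, so the shares are not a like comparison. Skeletal muscle markers summed to 22515 in high fat replicate 1 and 75182 in control replicate 1 and to at most 4001 in the other mice, with 0 of 9 called, and of 10 cardiac markers 1 was higher. Macrophage markers were called 3 lower and 3 higher of 13, and thymus and lymph node genes 0 of 3. The part of these cell types in the immunoglobulin differences was not tested. Without replicate 1 of both groups 7 of 33 immunoglobulin probe sets were called, all lower and all among the 9. The share of all tested probe sets called lower was then 2.81 percent.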

How the data were processed

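RNA from lung was isolated by Qiagen RNeasy and given a biotin label, per the labels' protocols. The authors deposited linear intensity values made with MAS5, per the submitters' processing notes. The sources used here do not give its version or settings. Gene symbols came from the platform annotation, and 28 of the 29 member symbols were found in RefSeq by gene identifier, with 0 changed. Signals under 1 were raised to 1 before log2. Of 45101 probe sets, 64 Affymetrix controls were left out, and those at or above the 40th percentile of mean log2 signal (70.3 as a signal) were tested with limma 3.58.1 in R 4.3.3 (lmFit, then eBayes with trend; two-sided tests, 4 residual degrees of freedom, Benjamini-Hochberg adjustment). The fit was tested on simulated data. Means and SDs are of linear signals, differences are of log2 signals, and folds are 2 to the power of the log2 difference. The precision is limited by the 3 arrays per group. Named probe sets were all called ones, those of constant region genes and Jchain, and the 8 brightest. Named genes of the lists were the called ones among the 4 smallest p of each list and a fixed set, each read by its brightest probe set with a single symbol. Other members, Tnfrsf17, Sftpc, Scgb1a1 and Ager are named in addition. The members and lists were chosen with earlier results of these data known. Alternatives were other scalings, filters and variance models, the replicate number as a block, and leaving out mice. Scan dates were not used here and no batch could be examined, and the sample numbers of the diets lie in separate ranges, so a batch that follows them cannot be told apart from diet.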

Additional observations from a re-analysis of the deposited data

How the results depend on the processing

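The 9 immunoglobulin probe sets called lower became 4 with robust variance estimation, which lost 3 of the 4 Ighm calls, Igkv14-111 and Igkv9-120, 4 of 18 with 1 probe set for each set of symbols, and 5 to 12 with 1 mouse left out, lowest without control replicate 2 and highest without control replicate 3 or high fat replicate 1. The share of all tested probe sets called lower was then 1.67, 1.46 and 5.22 percent, and 8.83 percent with robust estimation, against 8.27 percent. Settings other than these and the replicate block gave 6 to 11, and 0 were called higher under any setting run. The median log2 difference of the tested members lay between -1.87 and -1.01 with 1 mouse left out and between -1.52 and -1.05 otherwise. The 2 bright Ighm probe sets turned to 0.058 and 0.057 without high fat replicate 3 (their lowest values with a mouse left out were -1.77 and -1.3). Pax5 turned to 0.046 with quantile normalization and 0.057 with median centring. Xbp1 turned to 0.24 with median centring, 0.0025 with array weights and 0.0042 without replicate 1 of both groups, and ran from -0.12 to 0.077 with 1 mouse left out. The causes were not tested. The alternatives for the listed genes were chosen after seeing the data. Deviations of same-numbered mice correlated at 0.167, 0.108 and -0.041 across probe sets, and those of differently numbered mice between -0.213 and 0.127. With 3 mice per group these values cannot show whether replicate numbers pair the samples. With the replicate number as a block 12 immunoglobulin probe sets were called lower, 8 of them among the 9, against 7.02 percent of all tested probe sets. Dim probe sets and the 3 arrays per group limit what could be detected.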
